A study of Mus musculus with 2 samples.

Results

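The SRY-related HMG box (Sox) transcription factors Sox1, Sox2, Sox4, Sox5, Sox6, Sox8, Sox9, Sox10 and Sox11, together with the long noncoding RNA Sox2ot, were followed through single-nucleus RNA-seq of the newborn mouse cerebellum. These 10 genes were chosen by symbol from the 32285 genes of the deposited matrices, with their levels in these libraries already known, and all 10 had at least 50 UMIs over both libraries. The study pooled 12 cerebella of postnatal day 1 mice into each of 2 libraries of nuclear RNA. The control library came from Cre-negative littermates, labelled Tox3f/f for genotype and Tox3f/f or Tox3f/+ in the library name. The other library, labelled cKO, came from Nestin-cre;Tox3f/f mice, in which Cre is driven by Nestin regulatory sequence, active in neural progenitors and their progeny, and the floxed Tox3 gene encodes another HMG box protein. Both libraries therefore carry floxed Tox3 alleles. They differ in Cre and, if animals with 1 floxed allele were pooled into the control, in the number of those alleles too.

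SOX proteins bind DNA through the HMG box and are grouped by its sequence. The SOXB1 factors Sox1 and Sox2 maintain neural precursors, and Sox2ot is transcribed across the Sox2 locus. The SOXC factors Sox4 and Sox11 act in newly born neurons. The SOXD factors Sox5 and Sox6 have no activation domain of their own and modulate the action of other Sox proteins, among them the SOXE factors Sox8, Sox9 and Sox10, which specify glia and drive oligodendrocyte differentiation.

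To show what makes the 9 coding members a family, a stretch of 60 bases from the HMG box of each is given from the annotated transcripts (GENCODE M21, GRCm38). Capitals mark the 26 bases that all 9 share. The members are ordered by group, SOXB1, SOXC, SOXD and SOXE.
Sox1, chr8:12396520-12396579, plus strand: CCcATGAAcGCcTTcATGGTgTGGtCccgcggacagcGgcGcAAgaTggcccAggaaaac
Sox2, chr3:34650551-34650610, plus strand: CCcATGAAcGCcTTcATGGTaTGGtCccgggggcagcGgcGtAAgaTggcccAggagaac
Sox4, chr13:28952779-28952838, minus strand: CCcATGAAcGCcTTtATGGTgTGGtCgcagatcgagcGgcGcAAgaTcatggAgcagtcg
Sox11, chr12:27342196-27342255, minus strand: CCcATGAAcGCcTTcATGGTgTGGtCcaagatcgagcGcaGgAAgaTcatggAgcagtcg
Sox5, chr6:143841211-143841270, minus strand: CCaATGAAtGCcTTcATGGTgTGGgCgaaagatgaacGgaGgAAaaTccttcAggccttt
Sox6, chr7:115489700-115489759, minus strand: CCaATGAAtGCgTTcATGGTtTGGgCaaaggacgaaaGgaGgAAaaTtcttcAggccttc
Sox8, chr17:25570160-25570219, minus strand: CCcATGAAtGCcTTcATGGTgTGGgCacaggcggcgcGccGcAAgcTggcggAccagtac
Sox9, chr11:112782906-112782965, plus strand: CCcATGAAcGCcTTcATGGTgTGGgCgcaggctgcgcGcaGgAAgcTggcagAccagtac
Sox10, chr15:79163339-79163398, minus strand: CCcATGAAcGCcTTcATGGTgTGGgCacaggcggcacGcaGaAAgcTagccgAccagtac
The window lay in the only exon of Sox1, Sox2, Sox4 and Sox11, in exon 1 of 3 of Sox8 and of Sox9, in exon 3 of 5 of Sox10, in exon 13 of 15 of Sox5 and in exon 14 of 16 of Sox6. The motif CCNATGAANGCNTTNATGGTNTGG, which is the stretch of 24 bases of Sox2 closest to all other members with N where they differ, was searched on the sense strand of transcripts only. It was held by 20 of 21877 protein-coding genes (0.0914%), all of them Sox genes and Sry. Over 210 aligned bases starting at the motif, the 6 pairs within a group were 82.4% to 90.5% identical, and the 30 pairs between groups were 52.9% to 75.2% identical. The highest identity, 90.5%, was that of Sox1 with Sox2 and of Sox4 with Sox11.

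The members differ far more in gene structure than in the HMG box. Sox2ot (ENSMUSG00000105265) spans chr3:34104270-34682619 on the plus strand, and the single exon of Sox2 (chr3:34650405-34652461) lies inside it on the same strand, so reads could be assigned to either gene and values of both are uncertain to that extent. Sox5 covers 954 kb, Sox6 568 kb and Sox2ot 578 kb, of which exons make up 1.51%, 2.61% and 2.0%. Sox1, Sox2, Sox4 and Sox11 have no introns and span 2.06 to 8.31 kb. Nuclear RNA holds unspliced transcripts, so levels were compared only within a gene and never between genes.

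The control library held 4857 nuclei barcodes and 22325208 unique molecular identifiers (UMIs), and the library labelled cKO held 6946 and 33726533. After removal of likely doublets and of droplets with a high mitochondrial share, 4667 and 6555 nuclei were kept, with a median of 3978 and 4025 UMIs. The libraries shared 9 barcodes. Each nucleus was placed by its markers in a class, called a gate here, and 39.2% of control and 32.0% of cKO nuclei were left ungated. In each of the 11 gates the summed level of its own markers was higher than in any other gate, in both libraries. The gates were drawn by these same markers, so this is no independent check of them. Tox3 itself was not lower in the library labelled cKO, with 104 counts per 1000000 UMIs (CPM) in control and 119 CPM in cKO, and in the granule progenitor-like gate it was at 256 and 610 CPM (2.38, 2.04 to 2.78). The UMI sum of the targeted gene could thus not check the label, and cKO stands here for the library labelled so. Whether those UMIs come from the undeleted part of the gene was not tested. Each group is 1 library, so no test between groups was possible, ratios carry 95% intervals for counting error only, and a ratio is called above or below 1 where that interval leaves out 1. PCR, animal differences and the spread between nuclei are not covered by these intervals.

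Over the whole libraries, 4 of the 10 members were at least 1.5-fold higher in cKO and 0 were at least 1.5-fold lower. Among all 17600 genes with at least 50 UMIs, 5.23% were at least 1.5-fold higher and 5.73% at least 1.5-fold lower. The members were chosen with these ratios known, so nothing is read from that count. The median log2 ratio was 0.15 over the members and -0.02 over all genes.

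The 4 higher members were Sox2ot, Sox6, Sox8 and Sox10. Sox2ot was at 144 CPM in control and 217 CPM in cKO, a ratio of 1.51 (1.44 to 1.57). Sox6 was at 157 and 267 CPM, a ratio of 1.70 (1.63 to 1.77). Sox10, the factor that switches on myelin genes, was at 4.92 and 12.2 CPM, a ratio of 2.48 (1.98 to 3.12). Its close relative Sox8 was at 2.63 and 5.34 CPM, a ratio of 2.03 (1.48 to 2.82). The intervals of Sox1 (1.12, 0.85 to 1.5), Sox2 (1.10, 0.89 to 1.36), Sox4 (1.06, 0.995 to 1.12) and Sox9 (0.90, 0.75 to 1.06) included 1. Sox5 at 0.94 (0.91 to 0.98) and Sox11 at 0.94 (0.882 to 0.999) lay slightly below 1.

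**Figure D1:**
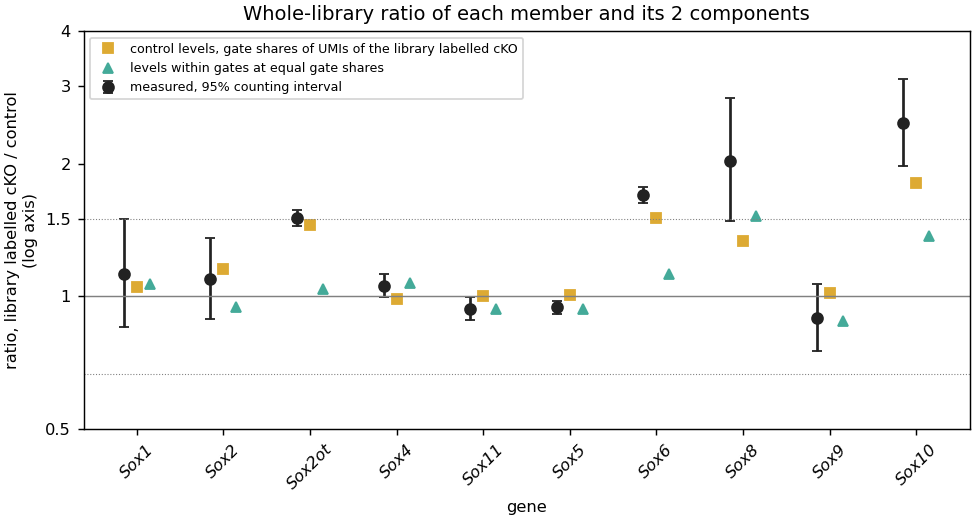
Ratio of cKO over control for each of the 10 members over the whole libraries, on a log axis, with 95% counting intervals, beside the ratio given by gate shares alone and the ratio at equal gate shares. Sox2ot, Sox6, Sox8 and Sox10 lie above the 1.5-fold line as measured, and Sox2ot moves from 1.51 to 1.04 at equal shares.

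The oligodendrocyte lineage-like gate held 81 nuclei (1.74%) in control and 258 (3.94%) in cKO, and 4 members had their highest level there in both libraries. Sox6 reached 3337 CPM in control and 3819 CPM in cKO, and its next gate, Bergmann glia-like, stood at 938 and 989 CPM. Sox10 reached 237 and 309 CPM, against at most 1.88 CPM in any other gate. Sox8 reached 27.9 and 62.7 CPM. In control this level of Sox8 could not be told from the astrocyte-like one of 21.4 CPM, since their ratio of 1.31 had an interval from 0.41 to 4.9.

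Sox2ot stood at 3155 CPM in control and 3024 CPM in cKO in the same gate. These nuclei therefore carried much of the whole library's signal of the noncoding RNA: 38.2% of Sox2ot UMIs in control and 47.9% in cKO. For Sox6 the shares were 37.0% and 49.2%, and for Sox10 they were 84.2% and 87.2%. Sox8 was spread more widely in control, with 18.5% of its UMIs in this gate and 25.9% in Bergmann glia-like nuclei, against 40.4% and 26.1% in cKO. Over a whole library, more nuclei of a type and more RNA per nucleus cannot be told apart, so the gates were used to read them separately.

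When control levels in each gate, ungated nuclei included, were combined at the cKO gates' shares of UMIs, Sox2ot gave a ratio of 1.45 from shares alone and 1.04 at equal shares. Sox6 gave 1.51 and 1.12 in the same way. Sox10 gave 1.81 and 1.37. Sox8 was the exception, with 1.33 from shares and 1.52 at equal shares, from 54 UMIs in control and 161 in cKO. Most of the ratio of Sox2ot and Sox6 over whole libraries thus coincided with the larger share of nuclei in gates rich in them. With 1 pool of animals a group, a difference between pools cannot be told apart from one between genotypes.

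Within the oligodendrocyte lineage-like gate, 1 of the 7 members with at least 50 UMIs was at least 1.5-fold higher (all genes 9.21%) and 0 were lower (7.62%). That member was Sox8, with a ratio of 2.25 (1.15 to 4.90) from 10 and 65 UMIs. Sox10 was at 1.30 (1.02 to 1.67), Sox6 at 1.14 (1.07 to 1.22), Sox5 at 1.06 (0.93 to 1.23) and Sox2ot at 0.96 (0.90 to 1.03). All 43 control and all 171 cKO nuclei of the gate with a Sox10 UMI also had a Sox6 UMI. Sox6 was common in the gate, however, and 78.9% and 86.2% of its nuclei without a Sox10 UMI had one too. Sox2ot and Sox6 were found together in 88.9% of control and 92.2% of cKO nuclei, where the product of their shares was 82.3% and 88.3%.

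A split of the gate by UMIs of precursor markers (Pdgfra, Cspg4) against maturation markers (Mbp, Enpp6, Gpr17, Bmp4) separated Sox2ot, Sox5 and Sox10 in the same direction in both libraries. Sox2ot was at 3432 CPM in the 67 control nuclei with more precursor UMIs and at 1185 CPM in the 10 with more maturation UMIs, a ratio of 0.35 (0.25 to 0.47). In cKO the values were 3605 CPM in 196 nuclei and 1367 CPM in 51, a ratio of 0.38 (0.34 to 0.43). Sox5 was also lower in nuclei with more maturation UMIs, at 0.58 (0.33 to 0.97) in control and 0.71 (0.59 to 0.86) in cKO. Sox10 went the other way, at 1.94 (1.03 to 3.43) and 1.49 (1.16 to 1.90). Sox6 was level, at 1.12 (0.92 to 1.34) and 1.01 (0.94 to 1.09). Sox2 was higher with maturation UMIs in cKO, at 4.95 (2.26 to 11.3) from 18 and 12 UMIs, but control had 1 UMI there. Sox8 was at 1.86 (1.05 to 3.22) in cKO and at 0.98 (0.02 to 7.06) in control, also from 1 UMI on the maturation side. Within the lineage the noncoding RNA and the SOXD factor Sox6 therefore parted, although both were at their highest in this gate.

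**Figure D2:**
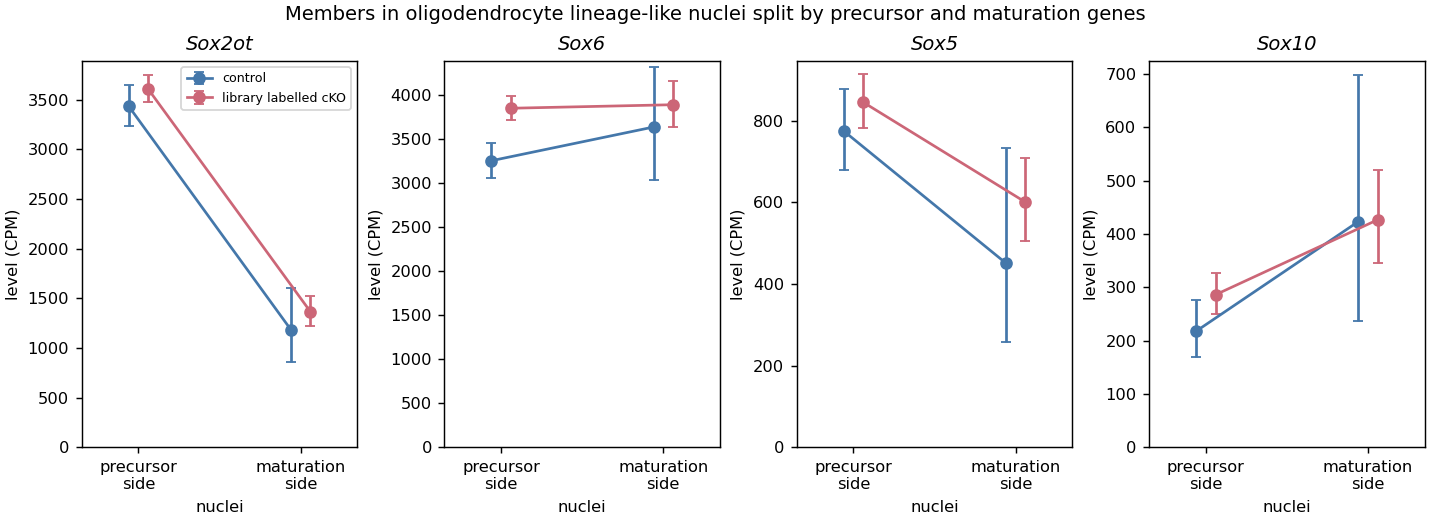
Level in CPM (linear axes from 0) of Sox2ot, Sox6, Sox5 and Sox10 in oligodendrocyte lineage-like nuclei with more precursor UMIs and with more maturation UMIs, in each library, with bars for 95% counting intervals and lines joining the values of a library. Sox2ot goes from 3432 to 1185 CPM in control and from 3605 to 1367 CPM in cKO, and Sox10 goes the other way.

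Among the gates, the Bergmann glia-like one had the most members with at least 50 UMIs. Bergmann glia-like nuclei, the radial glia that stay in the cerebellar cortex, made up 5.89% of control and 9.78% of cKO nuclei. In that gate 9 members had at least 50 UMIs, and 0 were at least 1.5-fold higher (all genes 5.85%) or lower (5.28%). Sox5 was at 721 and 682 CPM, Sox6 at 938 and 989 CPM and Sox2ot at 355 and 367 CPM in control and cKO. Sox9, which starts gliogenesis, was at 35.2 and 37.4 CPM. Of the precursor factors, Sox1 was at 15.5 and 18.7 CPM (1.20, 0.65 to 2.34) and Sox2 at 27.9 and 28.5 CPM. Sox11 was at 80.7 and 62.3 CPM, with an interval that included 1 (0.58 to 1.03).

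Sox5 was highest in astrocyte-like nuclei, at 966 CPM in control and 889 CPM in cKO. Sox2 was also highest there, at 51.3 and 38.8 CPM, although in neither library did it differ from the next gate beyond counting error. Of the 4 members with at least 50 UMIs in this gate, 1 was at least 1.5-fold higher (all genes 7.33%) and 0 were lower (6.51%). That was Sox2ot, with 84 UMIs in 51 control nuclei and 258 UMIs in 124 cKO nuclei, at 359 and 588 CPM (1.64, 1.28 to 2.12). In clusters in place of gates the ratio was 0.94, so its direction depends on how astrocytes are drawn.

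**Figure D3:**
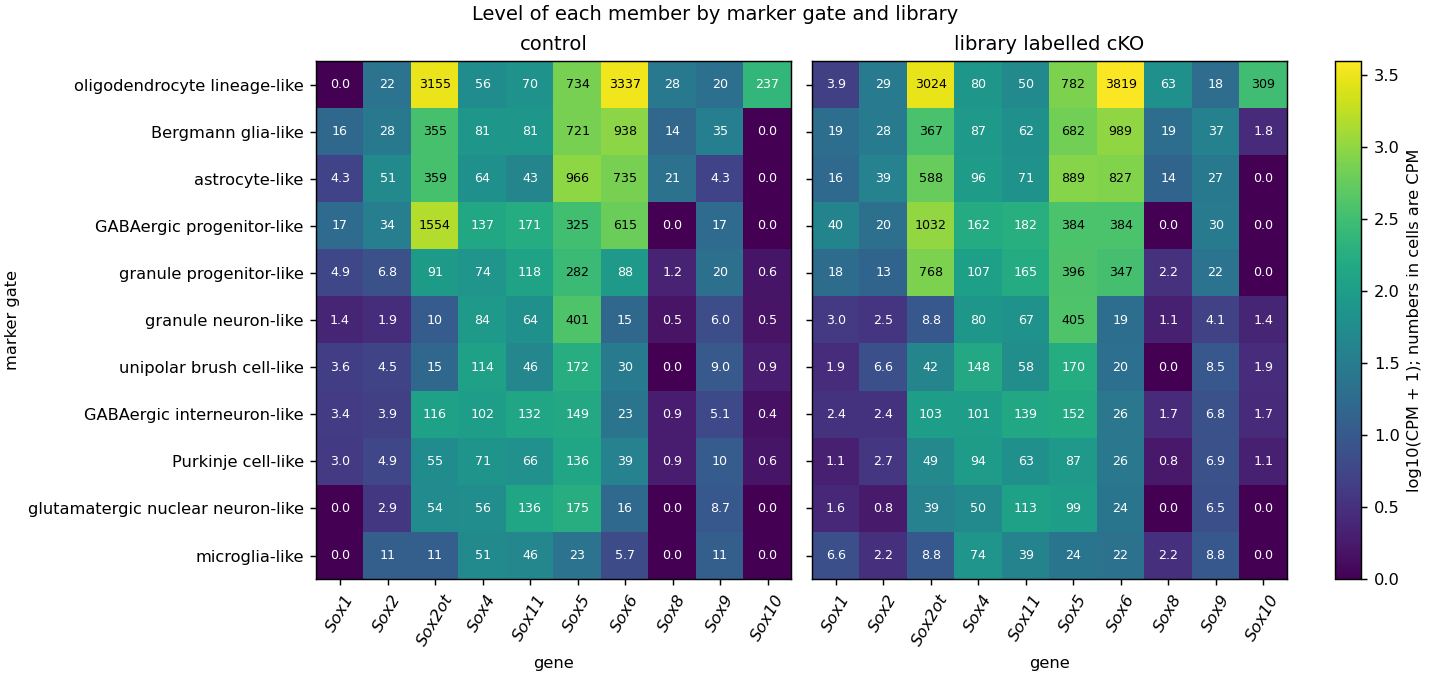
Heat map of the level of each member (columns) in the 11 gates (rows) of the control and cKO libraries, colored by log10(CPM + 1) with the CPM written in each cell. Sox2ot, Sox6, Sox8 and Sox10 peak in the oligodendrocyte lineage-like row, Sox5 in the astrocyte-like row, and Sox10 is at most 1.88 CPM in all other rows.

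Among progenitors, granule neuron progenitors (GNPs), which divide under Sonic hedgehog in the external granule layer, showed the widest separation of the libraries. The GNP-like gate held 414 nuclei (8.87%) in control and 126 (1.92%) in cKO. Sox2ot stood at 91.1 CPM (148 UMIs) in control and 768 CPM (345 UMIs) in cKO, a ratio of 8.43 (6.93 to 10.29). Of these UMIs, 110 lay in 9 control nuclei and 307 in 25 cKO nuclei, a spread the interval does not cover. Sox6 stood at 88.0 CPM and 347 CPM, a ratio of 3.94 (3.12 to 4.98). These were 2 of the 5 members with at least 50 UMIs, where 9.62% of all genes were at least 1.5-fold higher and 13.8% lower. Sox5 was at 1.40 (1.17 to 1.67), Sox11 at 1.40 (1.06 to 1.84) and Sox4 at 1.45 (1.01 to 2.04).

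The nuclei behind these values were not alike in both libraries. In clusters formed without the members' own counts, 345 of the 414 control nuclei of the gate (83.3%) but 62 of the 126 cKO nuclei (49.2%) lay in GNP-like clusters. Genes on the opposite strand within Sox2ot (Gm38505) and Sox6 (Gm45025) were not left out with them. The clusters are therefore not shown to be independent of signal from those loci. Bergmann glia markers summed to 580 CPM in the control gate and 1518 CPM in the cKO gate, and markers of GABAergic progenitors to 33.9 and 165 CPM. Of the Sox2ot UMIs of the gate, 132 of 148 in control and 314 of 345 in cKO came from nuclei outside GNP-like clusters. The part of these other nuclei in the ratio of Sox2ot was measured by leaving them out.

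In nuclei that were GNP-like both by gate and by cluster, Sox2ot and Sox6 parted. Sox2ot was at 11.2 CPM in control and 136 CPM in cKO (16 and 31 UMIs), a ratio of 12.1 (6.43 to 23.7). Sox6 had 52 UMIs in control (36.6 CPM) and 0 in cKO, which puts it at least 2.18-fold lower in cKO by the exact interval and 2.77-fold lower against a floor of 3 counts over the 62 nuclei. The GNP genes Pax6 (574 and 567 CPM) and Gli2 (781 and 817 CPM) were level between the libraries in these nuclei. Both are on marker lists that drew the gates, so their levels are no independent check of the nuclei. Fgfr4, another gate marker of GNPs, had no UMI in cKO. Outside the lists, Barhl1 was at 127 CPM in control and 17.8 CPM in cKO in those without a Sox2ot UMI. Zic1 was at 429 and 521 CPM in the same nuclei. GABAergic progenitor markers had 30 UMIs in control and 1 in cKO, with Ptf1a, Kirrel2, Dll3 and Gsx1 at 0 in cKO. Bergmann glia markers stood at 445 and 589 CPM, a ratio of 1.32 (1.09 to 1.60), and among them Gdf10 was at 9.84 and 119 CPM. The part of Gdf10-bearing nuclei in the Sox2ot ratio was not tested.

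The Sox2ot signal in GNP-like nuclei came from a minority of nuclei. A Sox2ot UMI was present in 13 of 345 control nuclei (3.77%) that were GNP-like by gate and cluster, and none of these had 5 or more. In cKO 12 of 62 nuclei had 1 to 4 UMIs, and 2 nuclei with 5 or more held 15 of the 31 UMIs. Taken by cluster alone, cluster 14 went from 12.3 to 155 CPM (12.7, 6.96 to 24.4) and cluster 18 from 9.57 to 169 CPM (17.7, 7.45 to 46.3). Over both clusters, 4 cKO nuclei held 48 of 67 UMIs. Splitting the whole gate by UMIs of dividing-cell markers gave a similar ratio in both parts, 8.96 (6.59 to 12.3) in dividing nuclei and 7.48 (5.79 to 9.74) in the others. This split, also used for Sox11 below, took in the nuclei outside GNP-like clusters, which held most of the gate's Sox2ot UMIs. Sox11 was higher in dividing than in other GNP-like nuclei of both libraries, at 1.40 (1.03 to 1.92) in control and 1.68 (1.03 to 2.79) in cKO.

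**Figure D4:**
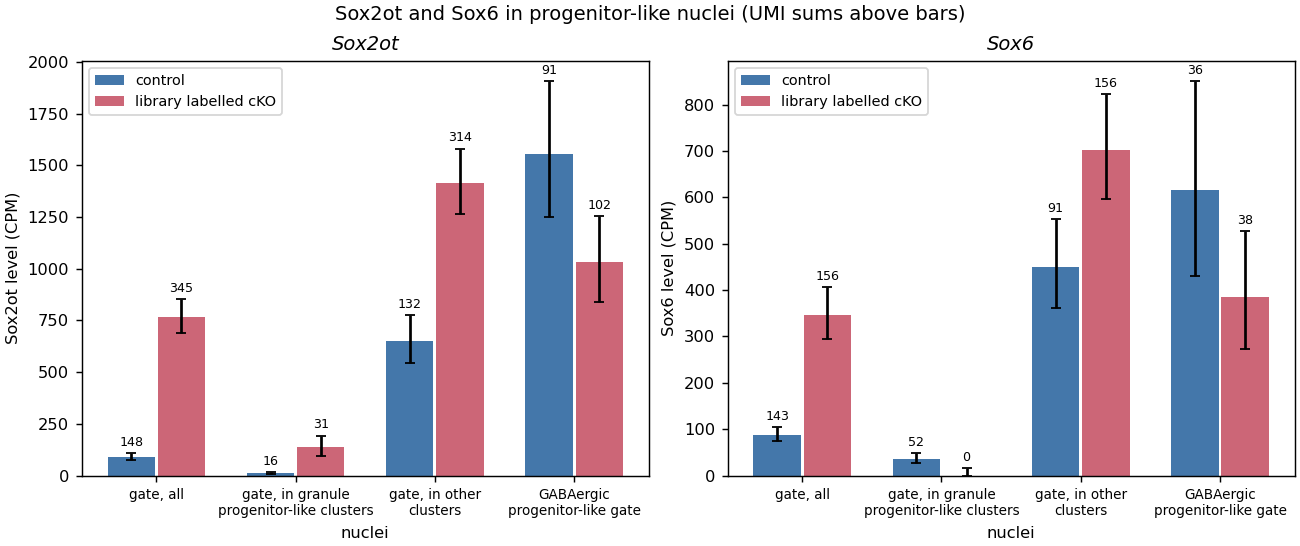
Level of Sox2ot and Sox6 in CPM in the granule progenitor-like (GNP-like) gate as a whole, in its nuclei inside GNP-like clusters, in its nuclei in other clusters and in the GABAergic progenitor-like gate, for control and cKO, with 95% counting intervals and UMI sums above the bars. Within GNP-like clusters Sox2ot reads 11.2 and 136 CPM and Sox6 reads 36.6 and 0 CPM.

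GABAergic progenitor-like nuclei, the Ptf1a lineage of the ventricular zone, were few, with 14 in control and 28 in cKO. Sox2ot was at 1554 CPM (91 UMIs) and 1032 CPM (102 UMIs), a ratio of 0.66 (0.50 to 0.89). Sox6 was at 615 and 384 CPM (0.63, 0.39 to 1.01). These made 2 of 3 members at least 1.5-fold lower (all genes 12.1%) and 0 higher (16.3%). Thinned to 1000 UMIs per nucleus the ratios of Sox2ot and Sox6 were 1.12 and 1.81, so the direction turned. Thinning also leaves out nuclei under 1000 UMIs, and the cause of the turn was not tested.

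In granule neurons Sox5 was well above its level in microglia-like nuclei, and Sox2ot and Sox6 were not. Granule neuron-like nuclei, the largest neuronal gate in control with 794 nuclei (866 in cKO), held Sox5 at 401 and 405 CPM (1.01, 0.94 to 1.09), against 22.8 and 24.1 CPM in microglia-like nuclei. In the same gate Sox2ot was at 10.1 and 8.81 CPM and Sox6 at 14.8 and 19.0 CPM, against 11.4 and 8.75 CPM for Sox2ot and 5.69 and 21.9 CPM for Sox6 in microglia-like nuclei, where each rests on 1 to 10 UMIs. All 5 members with at least 50 UMIs in granule neurons were within 1.5-fold (all genes 2.91% higher, 4.56% lower). The same held for the 5 in GABAergic interneuron-like nuclei (2.68% higher, 2.76% lower), where Sox11 was at 132 and 139 CPM and Sox2ot at 116 and 103 CPM.

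Sox5 differed between the libraries in Purkinje cell-like and glutamatergic nuclear neuron-like nuclei. In the Purkinje cell-like gate (413 and 926 nuclei) it was at 136 CPM in control and 87.2 CPM in cKO, a ratio of 0.64 (0.57 to 0.73). It was the 1 member of 6 at least 1.5-fold lower (all genes 5.29%), with 0 higher (2.36%). In the glutamatergic nuclear gate (71 and 140 nuclei) it was at 175 and 98.6 CPM, a ratio of 0.56 (0.43 to 0.73), again 1 of 4 members lower (5.61%) and 0 higher (5.84%). Granule neuron markers, whose cells carry Sox5, moved with it, from 232 to 156 CPM in the Purkinje cell-like gate and from 326 to 259 CPM in the glutamatergic nuclear gate. Their part in the Sox5 ratio was not tested. Without doublet removal the Purkinje ratio was 0.77, and in clusters it was 0.62. Thinned to 1000 UMIs per nucleus, the ratio was 0.72 (0.49 to 1.07) in the Purkinje cell-like gate and 0.63 (0.26 to 1.53) in the glutamatergic nuclear gate, the latter from 11 and 14 UMIs, and neither interval left out 1.

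In the Purkinje cell-like gate Sox6 was at 38.6 and 26.5 CPM (0.69, 0.54 to 0.87) and Sox4 at 71.0 and 94.4 CPM (1.33, 1.14 to 1.55). In unipolar brush cell-like nuclei, glutamatergic interneurons of the rhombic lip, Sox2ot had 17 and 45 UMIs, at 15.3 and 42.4 CPM (2.78, 1.56 to 5.17). It was 1 of 5 members at least 1.5-fold higher (all genes 5.79%), with 0 lower (5.87%). Thinned to 1000 UMIs, Sox2ot was seen in 1.72% and 1.70% of these nuclei, against 1.92% and 1.30% of microglia-like nuclei, so the shares lay close to background there.

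The SOXC genes were found in every gate. The level of Sox4 peaked in the GABAergic progenitor-like gate at 137 and 162 CPM, from only 8 and 16 UMIs. Unipolar brush cell-like nuclei followed at 114 and 148 CPM (1.30, 1.02 to 1.65). Microglia-like nuclei, which arise outside the neural lineage, read 51.2 and 74.4 CPM, so most gates stood near that background. Thinned to 1000 UMIs, Sox4 was detected in 7.69% and 8.44% of microglia-like nuclei and in 12.9% and 16.2% of unipolar brush cell-like nuclei. Sox11 likewise peaked in the GABAergic progenitor-like gate at 171 and 182 CPM, from 10 and 18 UMIs. It reached 136 and 113 CPM in glutamatergic nuclear neurons, against 45.5 and 39.4 CPM in microglia-like nuclei. For both genes the neighbours at the top of the order could not be told apart by counting error.

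Detection followed the levels. At 1000 UMIs per nucleus, Sox2ot was seen in 90.9% of control and 85.4% of cKO oligodendrocyte lineage-like nuclei, against 1.92% and 1.30% of microglia-like nuclei. The median depth before thinning was 4092 and 3882.5 UMIs in the first and 2900 and 2518 UMIs in the second. Sox6 was seen in 90.9% and 92.9%. Sox10 was seen in 18.2% and 25.7% of oligodendrocyte lineage-like nuclei after thinning and in 53.1% and 66.3% before it. Sox1, Sox2 and Sox9 were rare in all gates after thinning, not in neuronal ones alone. They were seen in at most 1.44%, 4.26% and 3.85% of a gate's nuclei in control, and 3.70%, 3.70% and 3.56% in cKO. In neuronal gates Sox1 had at most 3.59 CPM in control.

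Some genes had profiles close to those of the members over 20 points, the 10 gates with at least 50 nuclei in either library. Correlations of log2(CPM + 5) over these points are descriptions, as the gates share libraries and depth. Sox2ot was most like Gm38505 (r = 0.99), a noncoding gene that lies within its span on the opposite strand, then Gm45025 (0.92) and Stard13 (0.91). Sox6 was most like Gm45025 (0.98), which lies within Sox6 on the opposite strand, then Stk32a (0.97) and Stard13 (0.96). Sox5 was most like its antisense gene Sox5os4 (0.97), Phlpp1 (0.96) and Sox5os3 (0.95). Whether counting used strand is not stated, and reads of such partners cannot otherwise be told apart. For Sox10 and Sox9 the nearest genes were Pcmtd2 (0.90) and Ubap1 (0.90), for Sox8 Gm45025 (0.96), for Sox2 Jam2 (0.94) and for Sox1 Pdlim3 (0.88). The SOXC genes were least matched, with Usp1 (0.82) nearest to Sox11 and Trappc12 (0.76) to Sox4.

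Droplets with under 1000 genes (1031 kept in control, 713 in cKO) differed from other nuclei of their library by member. Sox9 was 5.62-fold and 7.19-fold higher in them in control and cKO, Sox1 5.27-fold and 6.21-fold, and Sox2 3.49-fold and 4.41-fold. Sox8 (4.23-fold and 2.94-fold), Sox4 (3.46-fold and 3.70-fold) and Sox11 (3.18-fold and 2.65-fold) were also higher, so all 6 members that span 2.06 to 8.31 kb were overrepresented. The members of long span were underrepresented, with Sox2ot at 0.67 and 0.71, Sox5 at 0.51 and 0.62 and Sox6 at 0.50 and 0.53 of the level in other nuclei. Sox10, which spans 10.3 kb, was at 0.87 and 0.89, from 3 and 5 UMIs. Such droplets made up 21.4% of all control and 10.5% of all cKO barcodes, and their part in the levels of the compact members was not tested.

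**Figure D5:**
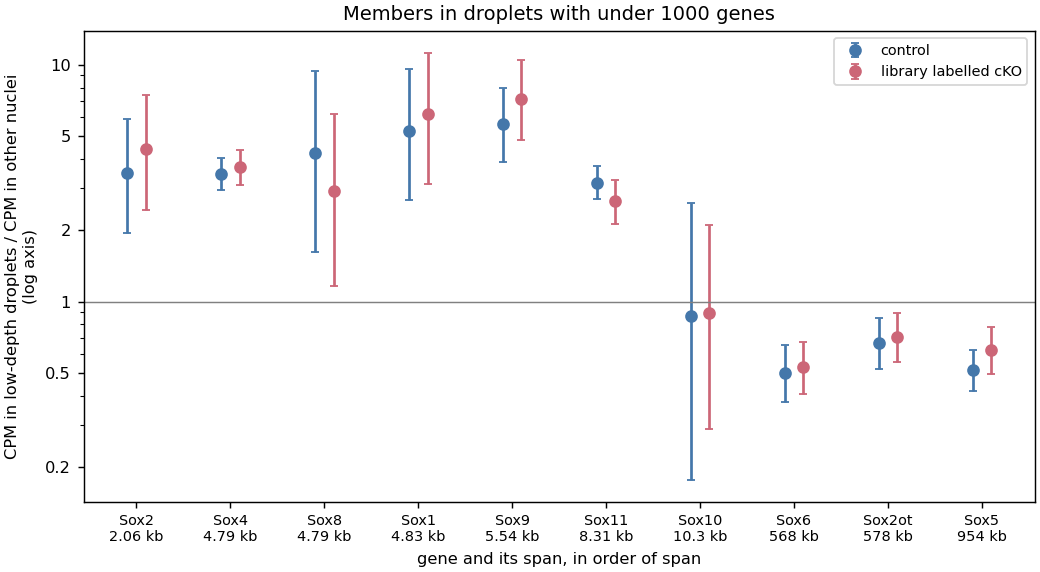
Ratio of each member's level in droplets with under 1000 genes over that in other nuclei of the same library, with members ordered by genomic span and 95% counting intervals on a log axis. The 6 compact members lie above 1 in both libraries and Sox2ot, Sox5 and Sox6 below 1.

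The wider Sox network was read from 4 lists over whole libraries. Of 10 other Sox genes, 4 had at least 50 UMIs and 0 of these passed 1.5-fold in either direction. Of 14 SOXB1 partners and neural precursor genes, 3 were at least 1.5-fold higher and 0 lower (median log2 ratio 0.14): the intermediate filament gene Nes (1.95), the POU factor Pou3f4 (1.60) and the receptor Notch1 (1.55). Of 10 early neuronal genes downstream of SOXC, 0 were higher and 1 was lower, the TEA domain factor Tead2 at 0.57 (median -0.10). Of 12 measured glial genes of the SOXE and SOXD programme, 3 were at least 1.5-fold higher and 1 lower (median 0.27). Mag, a myelin protein, was at 3.07 (1.62 to 6.30, from 12 and 54 UMIs). Myrf, a factor that drives myelin genes, was at 1.86 (1.17 to 3.04). Acan, a matrix proteoglycan, passed the fold at 1.62, but its interval of 0.88 to 3.11, from 16 and 38 UMIs, included 1. The nuclear factor I gene Nfia was at 0.60. Among all 17600 genes, 5.23% were at least 1.5-fold higher and 5.73% at least 1.5-fold lower, and the median was -0.02. The gate shares moved alongside these lists, with 1.74% and 3.44% of UMIs in oligodendrocyte lineage-like nuclei and 7.91% and 1.49% in GNP-like nuclei of control and cKO, and their part in the list values was not tested.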

How the data were processed

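The deposited matrices hold whole-number UMI counts per gene and nucleus, made by the authors with Cell Ranger 7.0.1 (bcl2fastq for demultiplexing) on mm10 and not corrected further; the intron and strand settings are not given in the sources used here. Counts were read in Python 3.11.15 (numpy 2.4.6, scipy 1.17.1, pandas 2.3.3, scanpy 1.11.5). Droplets over 25% mitochondrial counts and the top Scrublet scores, 0.8% per 1000 barcodes, were removed. Nuclei were gated by capped log-likelihood scores over fixed marker lists, a score of at least 2 with a lead of 1 and at least 2 markers detected; this scoring rule was set with the files in view. Levels are UMI counts per 1000000 UMIs (CPM). Intervals are exact Poisson, Clopper-Pearson or conditional binomial at 95%. Clusters came from Seurat 5.3.0 in R 4.3.3, with the members, but not genes that overlap them, left out of the features. All 10 members were named; for likeness, the 3 genes with the highest Pearson correlation of log2(CPM + 5) among genes with at least 500 UMIs; and from each list, up to 4 genes with at least 50 UMIs past 1.5-fold. The members and lists were chosen with earlier results of these data known. The alternatives were scaling, doublets, depth, thinning, the UMI minimum, a stricter gate and clusters. The GNP-like nuclei matched by gate and cluster, gate-share standardization, dividing and maturation splits and low-depth droplets were added after the data were seen. Scripts were tested on simulated data. Ambient RNA was not subtracted.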

Additional observations from a re-analysis of the deposited data

Results flagged for a closer look

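Sox2ot, Sox5 and Sox6 had ratios of cKO over control on opposite sides of 1 in different gates, with 95% counting intervals that left out 1 on both sides. With 1 library per group the difference between gates was not tested. Sox2ot was above 1 in GNP-like (8.43), astrocyte-like (1.64) and unipolar brush cell-like nuclei (2.78) and below 1 in GABAergic progenitor-like nuclei alone (0.664). The last ratio turned to 1.12 when nuclei were thinned to 1000 UMIs, and the astrocyte-like one to 0.937 in clusters. Sox6 was above 1 in GNP-like (3.94) and oligodendrocyte lineage-like nuclei (1.14) and below 1 in Purkinje cell-like nuclei (0.687). Sox5 was above 1 in GNP-like nuclei (1.40) and below 1 in Purkinje cell-like (0.641) and glutamatergic nuclear neuron-like nuclei (0.563). In the GNP-like gate Sox5 stayed above 1 among nuclei that also lay in GNP-like clusters (1.31, 1.02 to 1.67), as did Sox2ot, whereas Sox6 had no UMI in cKO there.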

How the results depend on the processing

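Of the 10 ratios over whole libraries, all kept their value within counting error under median-of-ratios scaling, without doublet removal and over nuclei with at least 1000 genes. Thinned to 1000 UMIs per nucleus, 5 of the 10 moved beyond their interval and 5 did not. Of those that moved, Sox2ot was at 1.61, Sox6 at 1.79, Sox4 at 1.13, Sox5 at 1.03 and Sox11 at 1.03. In the GNP-like gate, Sox2ot was at 5.70 without doublet removal, 14.2 in clusters and 12.1 in nuclei matched by gate and cluster. Sox6 there was at 2.93, 0.445 and 0 under the same settings, so its direction turned once other clusters were left out. Over the gates, 5 of 53 member ratios were at least 1.5-fold higher and 4 lower, where between 2.36% and 16.3% of all genes were higher, by gate, and between 2.76% and 13.8% lower. Thinning left 3 and 0, and matching gate and cluster, chosen after seeing the data, left 3 higher. GABAergic progenitor-like Sox2ot (1.12) and Sox6 (1.81) turned on thinning, and astrocyte-like Sox2ot (0.937) turned in clusters. Under the stricter gate 11 of the 53 ratios moved beyond their counting interval and 0 reversed. With a minimum of 20 UMIs, 1 other Sox gene was higher and 1 lower. The cause of these shifts was not tested. Of 220 levels by gate, 51 moved beyond their counting interval in clusters. No paired analysis was possible because each group is 1 library, and for the same reason no library could be left out.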

Other observations

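The lists of Sox partners and targets were also read within gates, beside the members. In the GNP-like gate 2 of the 10 measured SOXB1 partners and neural precursor genes were at least 1.5-fold higher in cKO (all genes 9.62%) and 0 were lower (13.8%), namely the RFX family transcription factor Rfx4 (70.2 and 191 CPM, a ratio of 2.73) and the receptor gene Notch1 (30.8 and 77.9 CPM, 2.53). Of 10 early neuronal genes in that gate 1 was higher, the homeobox gene Prox1 (31.4 and 105 CPM, 3.33). Of the nuclei in this gate, 345 of 414 in control and 62 of 126 in cKO lay in GNP-like clusters, and the part of the others in these ratios was not tested.

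In the Purkinje cell-like gate, where Sox5 and Sox6 were lower in cKO, the nuclear factor I genes Nfia (372 and 160 CPM, a ratio of 0.43) and Nfib (509 and 309 CPM, 0.61) were lower too. These were 2 of the 8 measured glial genes of the SOXE and SOXD programme, and 0 were higher, where 5.29% of all genes were lower and 2.36% higher. The chromatin remodeler gene Chd7 (151 and 86.8 CPM, 0.57) was among the 3 of 11 SOXB1 partners that were lower, and 1 was higher, Nes (3.64 and 6.11 CPM, 1.68, with an interval of 0.86 to 3.52). The summed level of granule neuron markers was also lower in that gate, at 232 and 156 CPM, and its part in these ratios was not tested. In the oligodendrocyte lineage-like gate Nfib was at 888 and 577 CPM (0.65) and Cnp, a myelin enzyme, at 47.5 and 75.3 CPM (1.59, with an interval of 0.93 to 2.86).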
